A study of Sus scrofa with 12 samples.

Results

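Substrate adaptors of the cullin ubiquitin ligases were examined in the longissimus dorsi, a muscle along the spine, of Laiwu and Yorkshire pigs. They were taken as every gene of the deposited table whose symbol is FBXO, FBXL, KLHL or ASB followed by a number, with FBXO32 left out. This gave 98 of 23271 listed genes, of which 35 were KLHL, 31 FBXO, 16 FBXL and 16 ASB. Laiwu is a Chinese breed with fat-rich muscle and Yorkshire a lean Western breed, and the animals are described as equal in weight. Each breed contributed 6 libraries of poly(A) RNA, with no treatment, genotype or age given in the labels, and the libraries are numbered 1 to 6 within a breed. Whether each library is its own animal is not stated, and the p-values therefore speak of the spread among these libraries, which may be technical.

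A cullin ligase is a modular enzyme that marks proteins with ubiquitin. A cullin scaffold carries a RING subunit at one end and an exchangeable adaptor at the other, and the adaptor picks the protein to be marked. KLHL proteins join CUL3 directly through a BTB domain. ASB proteins carry ankyrin repeats and a SOCS box that binds elongins B and C and CUL5. FBXO and FBXL proteins bind SKP1 and CUL1 through an F-box, and the FBXL proteins recognise clients with leucine-rich repeats. In striated muscle several adaptors are abundant and are known to act on thin filament, filamin and insulin signalling proteins, and some KLHL proteins stabilise their partners.

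Each library held between 54961358 and 67285809 counts. Skeletal muscle markers were abundant, and the 9 of 10 present in the table summed to 73280 to 92744 FPKM in Laiwu, against 74883 to 99644 FPKM in Yorkshire. FPKM is a count divided by gene length and library total, which allows levels of different genes to be compared. A level in whole muscle reflects both the number of cells of a type and the RNA per cell, and fewer cells and less RNA per cell cannot be told apart. Yorkshire 5 and Yorkshire 3 stood apart from the other libraries, with quality weights of 0.247 and 0.533 in limma's voom, against 0.851 to 1.99 in the other 10. In Yorkshire 5 the deviation of a gene from its breed mean followed gene length, at a Spearman's rho of -0.417 across the 11205 tested genes, and in the other libraries rho ran from -0.154 to 0.231. Genes are not independent replicates, so these values describe the libraries.

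None of the 78 adaptors tested passed the threshold between Laiwu and Yorkshire, and none of all 11205 tested genes did. KLHL41 was the most abundant adaptor, at a mean of 1186 FPKM over the 12 libraries. On the log2 CPM scale (reads per 1000000, scaled between libraries), Yorkshire 3 and Yorkshire 5 were the 2 lowest libraries for 20 of the 78. This was 25.6%, against 9.03% of all tested genes. On the FPKM scale the count was 12, or 15.4%, against 5.07%. The pattern was chosen after the values were seen. Yorkshire 3 was the highest library in log2 CPM for 7 adaptors, with KLHL40, KLHL30 and ASB5 among them. This was 8.97%, against 10.5% of all tested genes.

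Of the 98 adaptors, 78 reached an average of 0.5 FPKM and were tested, and 20 were left out. Those tested were 28 KLHL, 22 FBXO, 13 FBXL and 15 ASB genes. A mean of at least 10 FPKM was reached by 27 adaptors, of which 11 were KLHL, 10 ASB, 4 FBXO and 2 FBXL. The median level was 17.9 FPKM over the 16 ASB genes and 3.22 FPKM over the 35 KLHL genes, against 1.70 FPKM over the 31 FBXO and 1.54 FPKM over the 16 FBXL genes. The ASB family had the highest median, while the most abundant single adaptor was a KLHL gene. Just inside the minimum were FBXO8, KLHL13 and KLHL11 at 0.715, 0.689 and 0.547 FPKM, and just outside it FBXO10, KLHL42 and KLHL5 at 0.375, 0.368 and 0.236 FPKM.

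**Figure D1:**
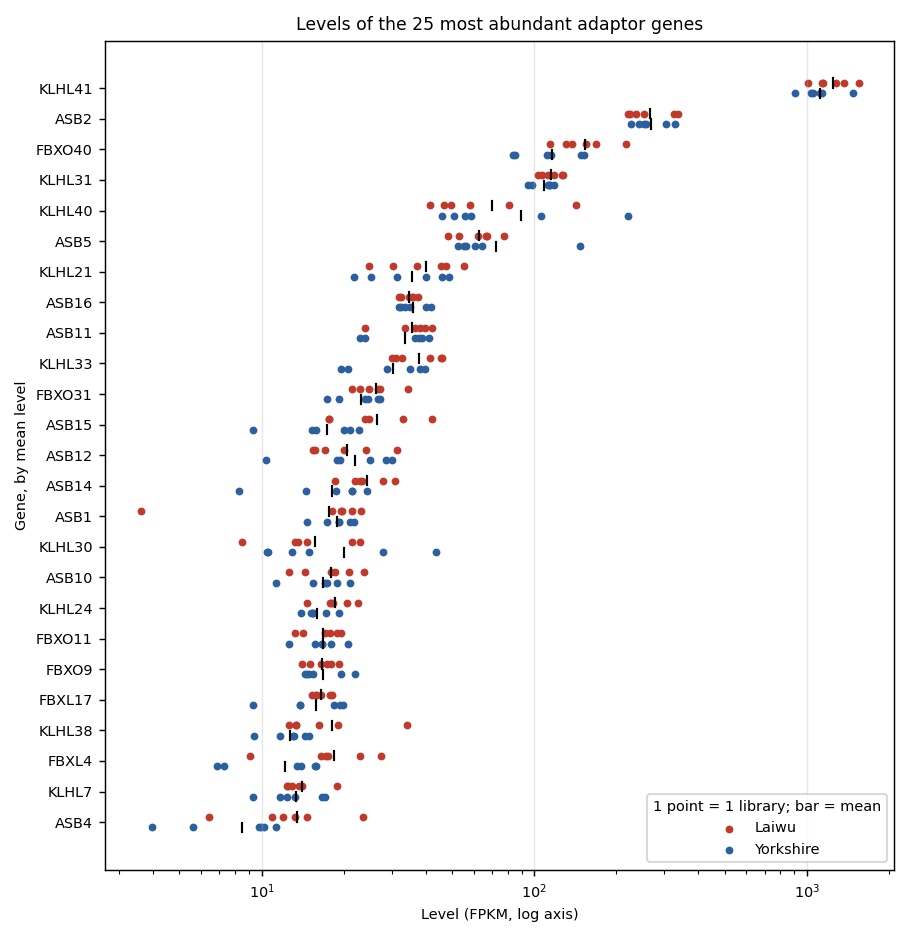
Levels of the 25 adaptors with the highest mean, in FPKM on a log axis, with 1 point per library (6 Laiwu, red, above 6 Yorkshire, blue) and a black bar at each breed's mean. KLHL41 stands alone near 1186 FPKM, and the points of the breeds overlap for every gene shown.

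Among the KLHL genes, KLHL41 (ENSSSCG00000057938; Sscrofa11.1 chromosome 15, 75875859 to 75893554), whose product binds and stabilises the thin filament protein nebulin, was the most abundant adaptor in all 12 libraries. KLHL41 ran from 1013.5 over a median of 1217 to 1548 FPKM in Laiwu, and from 906 over a median of 1085 to 1479 FPKM in Yorkshire. It held 43.6% to 53.4% of the summed FPKM of all 98 adaptors and ranked between 30 and 41 among all genes of a library. The breeds overlapped over most of their range, and the log2 fold change was 0.14 ± 0.13 (SE; edgeR's quasi-likelihood test, adjusted p = 0.917), with a 95% interval from -0.13 to 0.42. It was 0.0841 without Laiwu 3 and 0.0835 without Yorkshire 1.

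KLHL31 (chromosome 7, 27062044 to 27106111), whose loss causes a myopathy in mice, was the steadiest of the 5 most abundant adaptors. It ran from 103 over a median of 115 to 127 FPKM in Laiwu, and from 95.0 over a median of 113 to 118 FPKM in Yorkshire. The highest library was 1.34 times the lowest. Its log2 fold change was 0.07 ± 0.11 (SE; edgeR's adjusted p = 0.944), 0.0110 without Yorkshire 3 and -0.03 without Yorkshire 3 and Yorkshire 5.

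KLHL40 (ENSSSCG00000011286; chromosome 13, 26202677 to 26211522), which stabilises nebulin and the thin filament protein leiomodin-3, was far less even than KLHL41. Its level ran from 41.5 over a median of 53.9 to 143 FPKM in Laiwu, and from 45.8 over a median of 57.2 to 221 FPKM in Yorkshire. The high values were those of Laiwu 5 at 143 FPKM and of Yorkshire 3 and Yorkshire 5 at 221 and 106 FPKM, and the other 9 libraries lay between 41.5 and 81.1 FPKM. Its log2 fold change was -0.34 ± 0.41 (SE; edgeR's adjusted p = 0.920) with a 95% interval from -1.23 to 0.55. It was -0.67 without Laiwu 5, -0.23 without Laiwu 6, 0.07 without Yorkshire 3 and 0.35 without Yorkshire 3 and Yorkshire 5. KLHL40 lies over HHATL on the opposite strand by 4656 bases, and HHATL averaged 15.0 FPKM. No source used here says whether strand entered the counting, and the division of reads between them is uncertain.

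KLHL30, named after its values were seen, was high in the same libraries. It stood at 43.5 FPKM in Yorkshire 3, 27.8 FPKM in Yorkshire 5, 22.9 FPKM in Laiwu 5 and 21.4 FPKM in Laiwu 3, against 8.48 to 14.9 FPKM in the other 8 libraries. KLHL34, encoded on chromosome X, stood at 6.32 FPKM in Laiwu 5, 6.28 FPKM in Laiwu 3, 6.54 FPKM in Yorkshire 3 and 4.65 FPKM in Yorkshire 5, against 1.89 to 3.53 FPKM in the other 8. The 4 libraries that were highest for KLHL40 were therefore also the 4 highest for KLHL30 and for KLHL34, 2 of them of each breed.

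KLHL21, an adaptor that acts on Aurora B in dividing human cells, averaged 40.1 ± 11.4 FPKM in Laiwu, against 35.5 ± 11.1 FPKM in Yorkshire (SD, n = 6 each). Its range of 21.8 to 48.9 FPKM in Yorkshire lay almost inside that of 24.9 to 55.1 FPKM in Laiwu. KLHL33 averaged 37.8 ± 7.34 FPKM in Laiwu, against 30.4 ± 8.76 FPKM in Yorkshire (SD, n = 6 each), and its 2 lowest libraries were Yorkshire 3 and Yorkshire 5 at 19.6 and 20.7 FPKM. KLHL38 ran from 12.7 over a median of 14.8 to 34.0 FPKM in Laiwu, and from 9.37 over a median of 13.1 to 15.0 FPKM in Yorkshire. The value of 34.0 FPKM belonged to Laiwu 3, and the next Laiwu library was at 19.1 FPKM. Its log2 fold change was 0.46 ± 0.23 (SE; edgeR's adjusted p = 0.912), and 0.20 without Laiwu 3.

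KLHL3, which targets WNK kinases in the human kidney, was low in this muscle, at 0.510 to 1.19 FPKM in Laiwu with a median of 0.822 FPKM, against 0.727 to 2.38 FPKM in Yorkshire with a median of 1.13 FPKM. Its log2 fold change was -0.54 ± 0.27 (SE; edgeR's adjusted p = 0.912), and -0.30 without Yorkshire 3. It lies over the abundant muscle gene MYOT, which averaged 450.7 FPKM, by 58086 bases on the opposite strand, so its level is uncertain. Of its client genes, WNK4 averaged 0.289 ± 0.0521 FPKM in Laiwu, against 0.212 ± 0.0675 FPKM in Yorkshire (SD, n = 6 each). KLHL9, which acts with KLHL13 in human cell division, averaged 2.25 ± 0.327 FPKM in Laiwu, against 2.07 ± 0.359 FPKM in Yorkshire (SD, n = 6 each).

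Over the 28 tested KLHL genes, edgeR called 0 at an adjusted p under 0.05, 19 had a fitted log2 fold change above 0 and 9 below, and the median was 0.08. At an unadjusted p under 0.05 the count was also 0, against 4.44% of all tested genes. Those above 0 were 67.9%, against 49.7% of all tested genes, of which 0% were called.

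Among the ASB genes, ASB2 (ENSSSCG00000002467; chromosome 7, 115208700 to 115258654), which directs the breakdown of filamins and limits muscle mass in mice, was the most abundant. It ran from 222 over a median of 244 to 337 FPKM in Laiwu, and from 226 over a median of 254 to 328 FPKM in Yorkshire. The breeds overlapped almost completely, and the log2 fold change was -0.04 ± 0.14 (SE; edgeR's adjusted p = 0.978), with a 95% interval from -0.34 to 0.26. Its sign changed in several of the alternatives.

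ASB5 (chromosome 15, 38710179 to 38759073) ran from 48.3 over a median of 64.4 to 77.7 FPKM in Laiwu, and from 52.6 over a median of 58.4 to 147 FPKM in Yorkshire. The highest value belonged to Yorkshire 3, and the next Yorkshire library was at 64.2 FPKM. Its log2 fold change was -0.21 ± 0.21 (SE; edgeR's adjusted p = 0.918), -0.14 without Laiwu 6 and 0.05 without Yorkshire 3. Yorkshire 3 was also the highest library for KLHL40 and KLHL30.

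ASB15 (ENSSSCG00000016606; chromosome 18, 23825970 to 23859250), linked to muscle growth in cattle and rats, had the smallest p of the 78 tested adaptors. It ran from 17.6 over a median of 24.3 to 42.3 FPKM in Laiwu, and from 9.29 over a median of 18.01 to 22.7 FPKM in Yorkshire. Laiwu 3 and Laiwu 6 were highest at 42.3 and 32.9 FPKM, and Yorkshire 5 was lowest, while the breeds overlapped between 17.6 and 22.7 FPKM. ASB15 had a log2 fold change of 0.58 ± 0.23 (SE) with a 95% interval from 0.08 to 1.08, and it did not pass (edgeR's unadjusted p = 0.0269, adjusted p = 0.912). It was 0.41 to 0.67 with 1 library left out.

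ASB4, known from blood vessels and the hypothalamus of the mouse, ran from 6.43 over a median of 12.6 to 23.5 FPKM in Laiwu, and from 3.96 over a median of 9.90 to 11.3 FPKM in Yorkshire. Laiwu 3 was highest, and the 3 lowest libraries were Yorkshire 5, Yorkshire 3 and Laiwu 5. The log2 fold change was 0.63 ± 0.31 (SE; edgeR's adjusted p = 0.912), and 0.41 without Laiwu 3. ASB4 lies over PON2, at 9.36 FPKM, by 24326 bases on the opposite strand. ASB14 ran from 18.5 over a median of 23.2 to 30.98 FPKM in Laiwu, and from 8.24 over a median of 20.1 to 24.3 FPKM in Yorkshire, with a log2 fold change of 0.39 ± 0.21 (SE; edgeR's adjusted p = 0.912), and 0.25 without Yorkshire 5. It lies over APPL1, at 13.0 FPKM, by 6132 bases on the opposite strand. Both ASB4 and ASB14 had their 2 lowest libraries in Yorkshire 3 and Yorkshire 5.

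ASB16 was among the steadiest adaptors. It ran from 31.9 over a median of 35.2 to 37.4 FPKM in Laiwu, and from 31.9 over a median of 34.3 to 41.8 FPKM in Yorkshire, with a log2 fold change of -0.06 ± 0.09 (SE) and a 95% interval from -0.25 to 0.12. It was -0.0235 without Yorkshire 1 and -0.105 without Yorkshire 3. Its SD within breeds was 0.110 on the log2 CPM scale, and only 1.77% of the tested genes had a smaller one. ASB13, a further steady member named after its values were seen, lay at 5.83 to 7.21 FPKM in Laiwu, against 7.04 to 7.61 FPKM in Yorkshire.

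ASB1 (ENSSSCG00000016340; chromosome 15, 137931774 to 137952046), also named after its values were seen, was low in 1 library. Laiwu 3 was at 3.62 FPKM, from 1595 counts, while the other 5 Laiwu libraries lay between 18.2 and 23.3 FPKM and the 6 Yorkshire libraries between 14.7 and 21.9 FPKM. The lowest of those 11 libraries still held 6328 counts. Its neighbour KLHL30, which ends 210 kb before it on the same chromosome, was not low in Laiwu 3, at 21.4 FPKM.

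Of the ASB genes, ASB11, ASB12 and ASB9 lie on chromosome X. ASB11, a gene of muscle progenitors in zebrafish, ran from 23.9 over a median of 37.3 to 42.1 FPKM in Laiwu, and from 23.0 over a median of 37.2 to 41.3 FPKM in Yorkshire. Its 3 lowest libraries were Laiwu 5, Yorkshire 3 and Yorkshire 5. ASB12 averaged 20.6 ± 6.20 FPKM in Laiwu, against 22.0 ± 7.30 FPKM in Yorkshire (SD, n = 6 each), and ASB9, named for its position, which lies 14.9 kb from ASB11, was below the minimum at 0 to 0.258 FPKM over all libraries. ASB10 averaged 18.04 ± 4.07 FPKM in Laiwu, against 16.9 ± 3.34 FPKM in Yorkshire, and ASB18 2.96 ± 0.430 FPKM in Laiwu, against 3.15 ± 0.602 FPKM in Yorkshire (SD, n = 6 each).

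Over the 15 tested ASB genes, edgeR called 0, 6 had a fitted log2 fold change above 0 and 9 below, and the median was -0.05. ASB15 was the only one of them at an unadjusted p under 0.05, or 6.67%, against 4.44% of all tested genes. Those above 0 were 40.0%, against 49.7% of all tested genes, of which 0% were called.

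**Figure D2:**
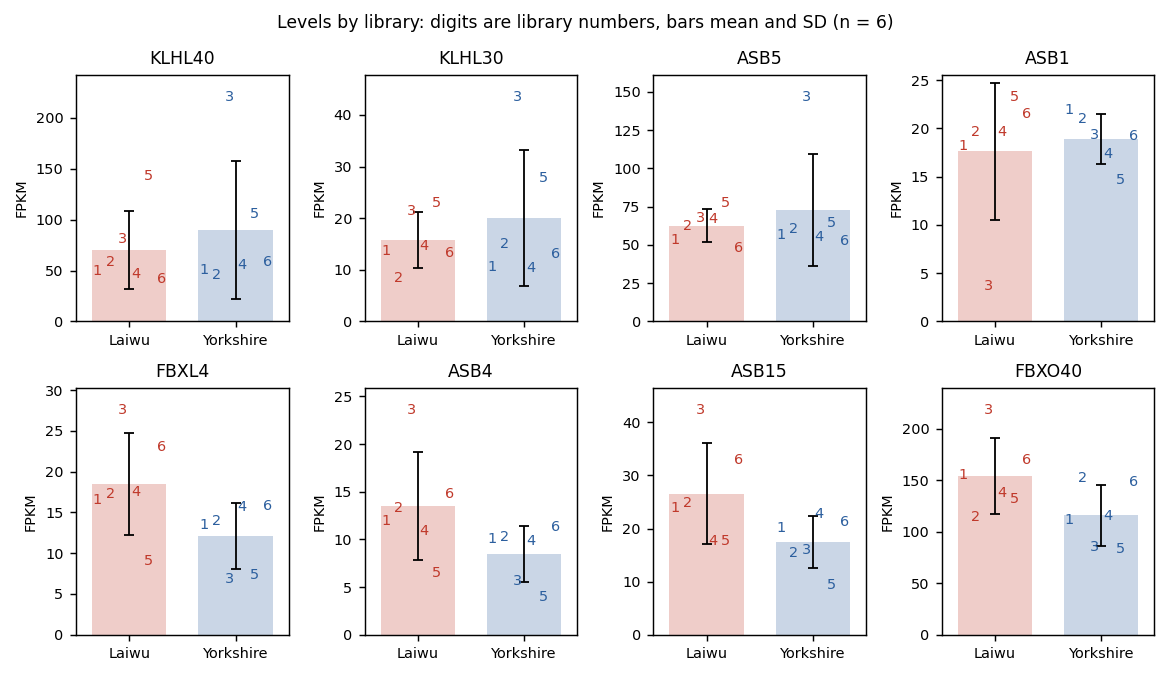
FPKM of 8 adaptors in each library, Laiwu left and Yorkshire right, where a digit is the library number, the bar the breed mean and the whisker the SD (n = 6). Library 3 of Yorkshire is highest for KLHL40, KLHL30 and ASB5 and among the 2 lowest Yorkshire libraries for FBXL4, ASB4 and FBXO40, and library 3 of Laiwu is low for ASB1 and highest for FBXL4, ASB4, ASB15 and FBXO40.

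Among the F-box genes, FBXO40 (ENSSSCG00000011885; chromosome 13, 138881513 to 138905356), the muscle F-box protein that directs breakdown of the insulin receptor substrate IRS1 in mice, was the most abundant. It ran from 114 over a median of 146 to 218 FPKM in Laiwu, and from 83.6 over a median of 113 to 152 FPKM in Yorkshire. Laiwu 3 was highest and Yorkshire 5 and Yorkshire 3 were lowest, and the other 9 libraries of both breeds lay between 112 and 169 FPKM. FBXO40 had a log2 fold change of 0.37 ± 0.20 (SE; edgeR's adjusted p = 0.912), with a 95% interval from -0.05 to 0.79, and it ran from 0.26 to 0.49 with 1 library left out. Its client gene IRS1 averaged 36.5 ± 5.96 FPKM in Laiwu, against 35.7 ± 13.0 FPKM in Yorkshire (SD, n = 6 each). IRS1 stood at 20.2 FPKM in Yorkshire 3 and 18.7 FPKM in Yorkshire 5, against 37.8 to 48.2 FPKM in the other Yorkshire libraries. FBXO40 lies over HCLS1, at 3.04 FPKM, by 7769 bases on the opposite strand.

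FBXO31, which acts on cyclin D1 in human cells, averaged 26.3 ± 4.64 FPKM in Laiwu, against 23.2 ± 3.97 FPKM in Yorkshire (SD, n = 6 each). FBXO11, which acts on BCL6 in human B cells, averaged 16.8 ± 2.53 FPKM in Laiwu, against 16.7 ± 2.68 FPKM in Yorkshire. FBXO9 averaged 16.7 ± 1.896 FPKM in Laiwu, against 16.8 ± 3.17 FPKM in Yorkshire, and FBXO7, a gene of inherited parkinsonism, 7.29 ± 1.02 FPKM in Laiwu, against 7.44 ± 0.844 FPKM in Yorkshire. The breed means of each of these differed by less than the SD within a breed.

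FBXO30, which acts in denervation atrophy in mice, ran from 3.16 over a median of 3.63 to 4.49 FPKM in Laiwu, and from 2.33 over a median of 3.16 to 4.42 FPKM in Yorkshire, a log2 fold change of 0.23 ± 0.14 (SE; edgeR's adjusted p = 0.912). FBXO21 ran from 3.71 over a median of 4.02 to 4.53 FPKM in Laiwu, and from 2.49 over a median of 3.88 to 4.14 FPKM in Yorkshire, where Yorkshire 5 held the value of 2.49 FPKM. FBXO3 averaged 4.12 ± 0.435 FPKM in Laiwu, against 3.68 ± 0.370 FPKM in Yorkshire (SD, n = 6 each), and its SD within breeds of 0.103 on the log2 CPM scale was the smallest of the 78 tested adaptors.

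FBXO39, named after its values were seen, had the largest SD within breeds of the tested adaptors, 1.08 on the log2 CPM scale. It reached 3.63 FPKM in Laiwu 4 and, in Yorkshire 2, 3.27 FPKM, against 0.380 to 1.45 FPKM in the other 10 libraries. KLHL23, likewise named after its values were seen, was also highest in Laiwu 4 and Yorkshire 2, 1 library of each breed, at 19.9 and 18.1 FPKM. In the other 10 libraries it ran from 5.13 to 16.1 FPKM, with Laiwu 6 at 16.1 FPKM.

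FBXL17, which removes faulty BTB dimers in human cells and so acts on the KLHL family itself, was the most abundant FBXL gene. It averaged 16.6 ± 1.18 FPKM in Laiwu, against 15.8 ± 4.17 FPKM in Yorkshire (SD, n = 6 each), with Yorkshire 5 lowest at 9.30 FPKM. FBXL4 (ENSSSCG00000004347; chromosome 1, 65872123 to 65935703), a mitochondrial protein that limits mitophagy and whose loss depletes mitochondrial DNA in people, ran from 9.08 over a median of 17.4 to 27.5 FPKM in Laiwu, and from 6.87 over a median of 13.7 to 15.8 FPKM in Yorkshire. The 3 lowest libraries were Yorkshire 3, Yorkshire 5 and Laiwu 5, and Laiwu 3 and Laiwu 6 were highest. FBXL4 had a log2 fold change of 0.56 ± 0.28 (SE; edgeR's adjusted p = 0.912), with a 95% interval from -0.03 to 1.16. The genes of its clients BNIP3 and BNIP3L averaged 87.0 ± 8.15 and 7.04 ± 1.89 FPKM in Laiwu, and 96.1 ± 10.2 and 6.76 ± 2.12 FPKM in Yorkshire (SD, n = 6 each).

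FBXL5, the iron-sensing adaptor that acts on IREB2, averaged 7.75 ± 1.58 FPKM in Laiwu, against 7.84 ± 0.997 FPKM in Yorkshire (SD, n = 6 each), and FBXL18 3.85 ± 0.762 FPKM in Laiwu, against 3.71 ± 0.656 FPKM in Yorkshire. FBXL22, an adaptor of the cardiac sarcomere in mice, was low at 0.732 to 3.70 FPKM in Laiwu, against 0.956 to 1.66 FPKM in Yorkshire. The value of 3.70 FPKM was that of Laiwu 4, from 177 counts, and the fold change of FBXL22 changed sign without it.

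Over the 22 tested FBXO genes, edgeR called 0, 13 had a fitted log2 fold change above 0 and 9 below, and the median was 0.04. Over the 13 tested FBXL genes it called 0, with 8 above 0 and 5 below and a median of 0.03. Those above 0 were 59.1% of the FBXO and 61.5% of the FBXL genes, against 49.7% of all tested genes, of which 0% were called.

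Over the 4 families, edgeR called 0 of 78 adaptors at an adjusted p under 0.05, where 0% of all 11205 tested genes were called, and the smallest adjusted p was 0.912. ASB15 alone, or 1.28%, had an unadjusted p under 0.05, against a background of 4.44%. DESeq2 called 0 adaptors, against 0.00892% of all tested genes. It had 4 of the 78 at an unadjusted p under 0.05, against 569 of all 11205 tested genes, or 5.08%. With limma on log2(FPKM + 1), 0 adaptors and 0 of all tested genes were called. There 3 of the 78 had an unadjusted p under 0.05, against 391 of all 11205 tested genes, or 3.49%. Laiwu and Yorkshire did not overlap for 0 of the 78, against 0.178% of all tested genes. Fitted log2 fold changes were above 0 for 46 and below for 32, or 59.0% above 0 against 49.7% of all tested genes, with a median of 0.05 against -0.001. The median was 0.02 without Yorkshire 3, 0.02 without Yorkshire 5 and 0.002 without both. The fold changes ran from -0.54 for KLHL3 to 0.63 for ASB4, and the 95% interval lay between -1 and 1 for 68 of the 78. The median SE was 0.164 over the adaptors and 0.163 over all tested genes.

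**Figure D3:**
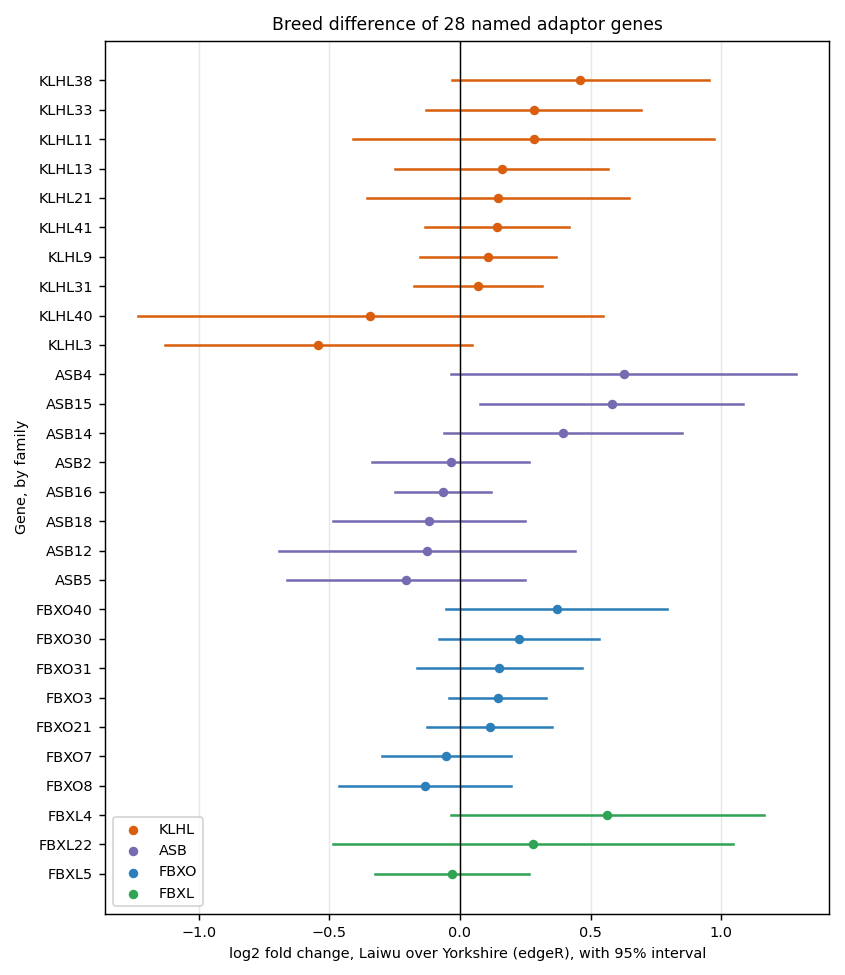
Fitted log2 fold change, Laiwu over Yorkshire, of 28 named adaptors by edgeR, grouped by family, where a point is the estimate and a line its 95% interval. ASB15 alone has an interval that leaves out 0, and its adjusted p was 0.912.

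Markers of other cells and of muscle fibre types were summed in each library. All 7 tested adipocyte markers had fitted fold changes above 0, 6 of them at an unadjusted p under 0.05 and 0 past the adjusted threshold, and the 8 listed markers summed to 95.0 to 291 FPKM in Laiwu, against 85.6 to 154 FPKM in Yorkshire. Laiwu 3 and Laiwu 6, the highest libraries for ASB15, ASB4 and FBXL4, had the highest adipocyte sums, 291 and 274 FPKM. The other libraries followed this order in part. Laiwu 5 had the next sum, 182 FPKM, and was among the 3 lowest libraries for ASB4 and FBXL4. Laiwu 2 had the lowest Laiwu sum, 95.0 FPKM, and held 17.3 FPKM of FBXL4. Yorkshire 6 had the highest Yorkshire sum, 154 FPKM, and the highest Yorkshire levels of ASB4 and FBXL4, 11.3 and 15.8 FPKM. Yorkshire 5 had the lowest sum of all libraries, 85.6 FPKM, and the lowest ASB4 and ASB15, 3.96 and 9.29 FPKM. Yorkshire 4 had the next lowest sum, 90.2 FPKM, and the highest Yorkshire level of ASB15, 22.7 FPKM. Of the 9 tested slow fibre markers 8 were below 0, with sums of 701 to 2920 FPKM in Laiwu, against 1612 to 3441 FPKM in Yorkshire. The low Laiwu sums were those of Laiwu 1 and Laiwu 4, 701 and 1151 FPKM, and the other Laiwu libraries lay between 2076 and 2920 FPKM. Of the 10 tested fast fibre markers 7 were also below 0, as were 7 of the 9 tested skeletal muscle markers, and 0 of these 3 lists were called. The 6 markers of fibroblasts and matrix were all above 0, with sums of 227 to 685 FPKM in Laiwu, against 259 to 467 FPKM in Yorkshire. None of the listed markers present in the table was at 0 counts in all libraries. The part of these cells and fibre types in the adaptor values was not tested.

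The median SD within breeds was 0.292 on the log2 CPM scale over the 78 adaptors and 0.285 over all tested genes. By family it was 0.363 for ASB, 0.304 for FBXL, 0.284 for KLHL and 0.244 for FBXO. The highest library was under 2 times the lowest for 38 of the 78 and over 3 times for 20. KLHL40, at an SD of 0.734, was more variable than 93.8% of all tested genes, and ASB1, at 0.758, than 94.3%.

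**Figure D4:**
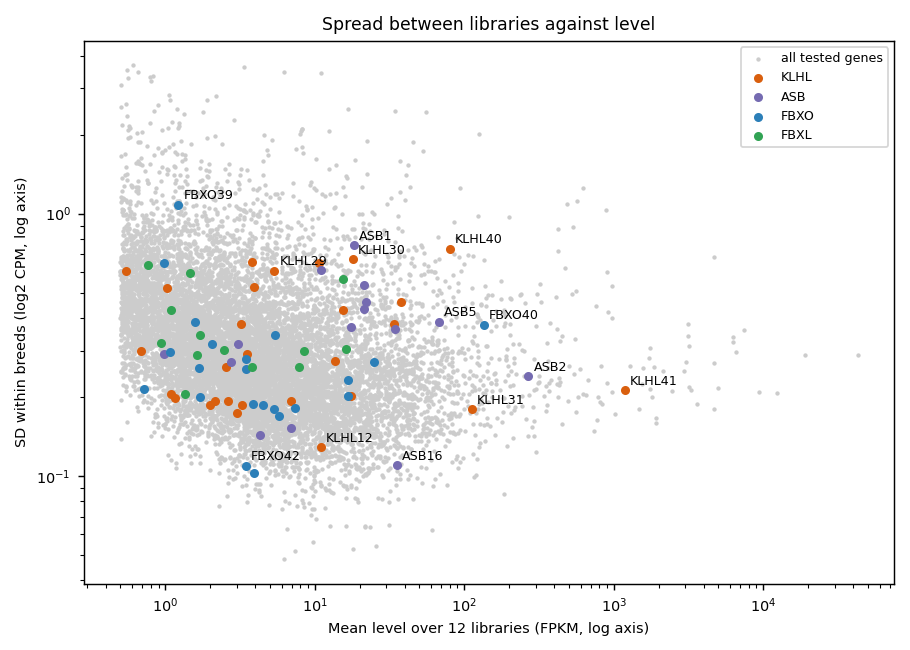
SD within breeds on the log2 CPM scale against mean FPKM, both on log axes, for all 11205 tested genes (grey) and the 78 adaptors (coloured by family). KLHL40, at an SD of 0.734, and ASB1, at 0.758, lie among the more variable adaptors, and ASB16, at 0.110, among the least.

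On the log2 CPM scale, Yorkshire 3 was the lowest library for 18 of 78 adaptors, or 23.1%, against 8.16% of all tested genes, and Yorkshire 5 for 17, or 21.8%, against 22.3%. Yorkshire 5 was the highest library for 5 adaptors, or 6.41%, against 22.0% of all tested genes. Yorkshire 3 and Yorkshire 5 were together the 2 lowest libraries for 20 adaptors, or 25.6%, against 9.03%. These were FBXO40, KLHL31, KLHL33, FBXO31, ASB15, ASB14, FBXL17, KLHL38, FBXL4, KLHL7, ASB4, KLHL23, FBXO45, KLHL2, FBXO25, KLHL18, KLHL17, FBXO48, FBXL20 and KLHL13. They were together the 2 highest for 2 adaptors, KLHL30 and FBXO8, or 2.56%, against 8.78%. With Laiwu 5 added, the 3 libraries were the highest for 4 adaptors, with KLHL40, ASB5 and KLHL30 among them, or 5.13%, against 6.62% of all tested genes, and the lowest for 11 adaptors, or 14.1%, against 5.55%. On the FPKM scale, Yorkshire 3 and Yorkshire 5 were the 2 lowest libraries for 12 adaptors, or 15.4%, against 5.07% of all tested genes, and the 2 highest for 2, or 2.56%, against 11.7%. With Laiwu 5 added, the 3 libraries were the highest on that scale for KLHL40 and KLHL30, or 2.56%, against 6.98%, and the lowest for 8, or 10.3%, against 4.09%. These patterns were chosen after the values were seen and are descriptions with no test. Gene length moved with the deviations of Yorkshire 5, as given above. The median length implied by count and FPKM was 3868 bases for the adaptors and 3636 bases for all tested genes, and the part of length in these patterns was not tested.

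**Figure D5:**
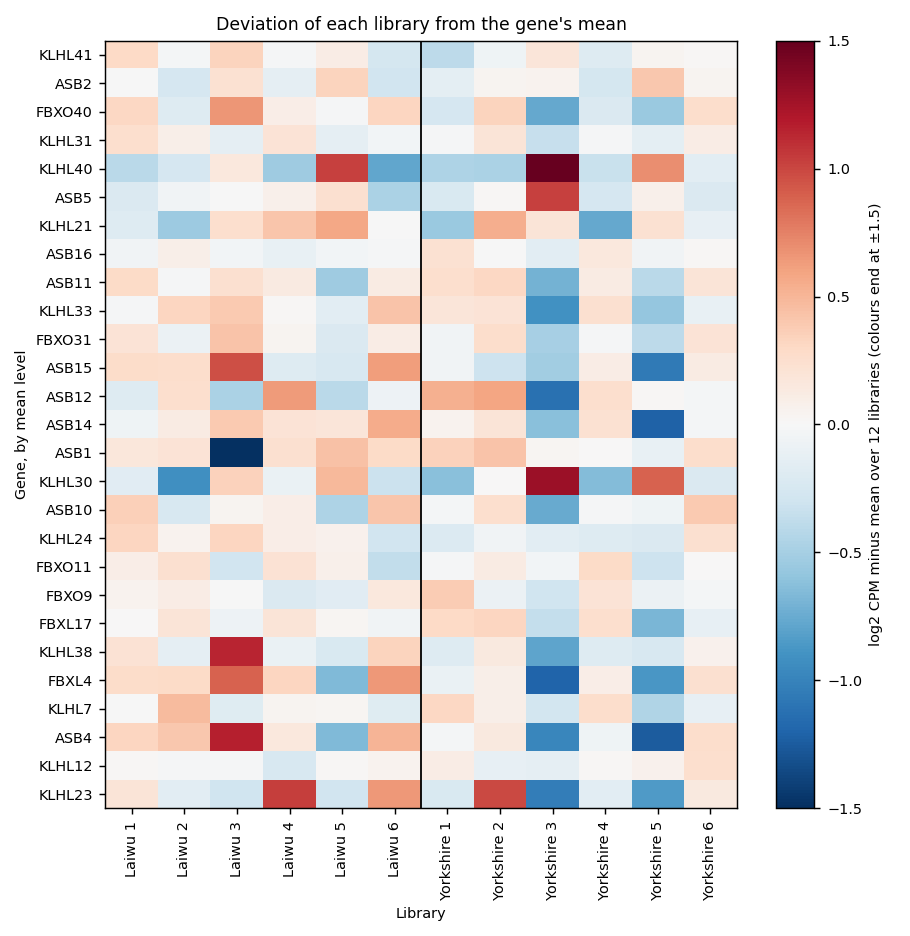
Deviation of each library from the gene's mean over 12 libraries, in log2 CPM, for the 27 most abundant adaptors (Laiwu libraries left of the line, Yorkshire right). Yorkshire 3 and Yorkshire 5 are blue (low) for FBXO40, KLHL33, FBXL4, ASB4 and KLHL23 and red (high) for KLHL40 and KLHL30, and ASB1 is dark blue in Laiwu 3.

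The 20 adaptors below 0.5 FPKM were 9 FBXO, 7 KLHL, 3 FBXL and 1 ASB gene. They included FBXO5, named after its values were seen, the inhibitor of the anaphase-promoting complex in dividing cells, which averaged 0.0843 ± 0.0529 FPKM in Laiwu, against 0.0828 ± 0.0402 FPKM in Yorkshire (SD, n = 6 each). FBXO16 had 4 counts in Yorkshire 4 and 0 elsewhere, FBXO43 4 counts in Laiwu 6 and 0 elsewhere, and FBXO41 4 counts each in Laiwu 1 and Laiwu 5 and 0 elsewhere. With 0 counts, up to 3 cannot be told from none, which is 0.0446 to 0.0546 CPM here, and these genes were not detectable at this depth in most libraries. At least 1 library with 0 counts was found for 12 of the 20.

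The partners of the adaptors were measured through 7 lists of cullins, linkers, activators, other adaptors and clients, 100 genes in all, of which 85 were tested. edgeR called 0 of them, 44 were above 0 and 41 below, and the median log2 fold change was 0.01. At an unadjusted p under 0.05 there were 4, or 4.71%, against the background of 4.44%. These 4 were KBTBD6, FBXW8, NEDD8 and CDC34, and the last 2 were highest in Yorkshire 5. KBTBD6 and FBXW8 had their 2 lowest libraries in Yorkshire 3 and Yorkshire 5. Both lay near the minimum of 0.5 FPKM, at means of 0.505 and 0.689 FPKM over all libraries.

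All 8 cullins were tested. CUL3, the scaffold of the KLHL proteins, averaged 23.0 ± 2.10 FPKM in Laiwu, against 21.7 ± 2.03 FPKM in Yorkshire, and CUL5, that of the ASB proteins, 20.8 ± 1.93 FPKM in Laiwu, against 18.8 ± 3.65 FPKM in Yorkshire (SD, n = 6 each). CUL1, that of the F-box proteins, averaged 15.0 ± 1.84 FPKM in Laiwu, against 13.9 ± 1.85 FPKM in Yorkshire. The cullin of highest level was CUL4A, at 53.1 ± 4.49 FPKM in Laiwu, against 52.9 ± 4.75 FPKM in Yorkshire (SD, n = 6 each). CUL9 averaged 2.83 ± 0.429 FPKM in Laiwu, against 2.48 ± 0.565 FPKM in Yorkshire (SD, n = 6 each). Without Yorkshire 5 the Yorkshire means were 19.8 FPKM for CUL5 and 2.7 FPKM for CUL9. Fitted fold changes were above 0 for 7 of the 8 cullins, and 0 were called.

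Of the RING subunits, RBX1, the partner of most cullins, averaged 27.2 ± 3.33 FPKM in Laiwu, against 28.9 ± 3.40 FPKM in Yorkshire, and RNF7, the partner of CUL5, 30.6 ± 4.43 FPKM in Laiwu, against 32.7 ± 4.81 FPKM in Yorkshire (SD, n = 6 each). ELOB, which encodes elongin B, averaged 5.74 ± 0.621 FPKM in Laiwu, against 7.37 ± 2.56 FPKM in Yorkshire. Yorkshire 5 held 12.4 FPKM of ELOB, and the other 5 Yorkshire libraries averaged 6.36 FPKM. Of 4 tested linkers and RING subunits 1 was above 0 and 3 below, and 0 were called. The list held 6 genes, and SKP1 and ELOC, which encodes elongin C, had no entry under these names in the deposited table.

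NEDD8, the modifier that switches cullins on, averaged 14.6 ± 1.15 FPKM in Laiwu, against 17.8 ± 3.16 FPKM in Yorkshire, and UBE2M, its conjugating enzyme, 23.1 ± 0.972 FPKM in Laiwu, against 26.5 ± 4.51 FPKM in Yorkshire (SD, n = 6 each). Yorkshire 5 was highest for both. The other 5 Yorkshire libraries averaged 16.5 FPKM of NEDD8, against 24.1 FPKM in Yorkshire 5, and 24.9 FPKM of UBE2M, against 34.9 FPKM in Yorkshire 5. DCUN1D2, a helper of neddylation, averaged 17.5 ± 2.73 FPKM in Laiwu, against 16.2 ± 2.66 FPKM in Yorkshire (SD, n = 6 each). Of the 7 tested neddylation genes 3 were above 0 and 4 below, and 0 were called. Of the 12 genes of the COP9 signalosome and the CAND exchange factors, which reset cullins, 5 were above 0 and 7 below and 0 were called. COPS4, the most abundant, averaged 53.5 ± 6.61 FPKM in Laiwu, against 56.0 ± 6.07 FPKM in Yorkshire, and COPS8 49.5 ± 11.7 FPKM in Laiwu, against 47.2 ± 8.75 FPKM in Yorkshire (SD, n = 6 each). COPS9 averaged 8.01 ± 0.945 FPKM in Laiwu, against 10.1 ± 2.82 FPKM in Yorkshire (SD, n = 6 each). CAND2, the form known from muscle, averaged 46.4 ± 4.04 FPKM in Laiwu, against 45.2 ± 6.29 FPKM in Yorkshire, and CAND1 3.29 ± 0.478 FPKM in Laiwu, against 2.95 ± 0.803 FPKM in Yorkshire (SD, n = 6 each).

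CDC34, a ubiquitin-conjugating enzyme that works with CUL1 ligases, was the most abundant of the enzymes listed, at 449 ± 53.7 FPKM in Laiwu, against 558 ± 128 FPKM in Yorkshire (SD, n = 6 each). Yorkshire 5 held 796 FPKM of CDC34, and the other 5 Yorkshire libraries averaged 510.3 FPKM. UBE2D2 averaged 47.4 ± 7.69 FPKM in Laiwu, against 55.7 ± 15.4 FPKM in Yorkshire (SD, n = 6 each), and 50.9 FPKM in Yorkshire without Yorkshire 5. Of the 7 enzymes of that list 1 was above 0 and 6 below, and 0 were called. Of the 33 tested adaptors of other families, 17 were above 0 and 16 below, and 0 were called. FEM1A, an adaptor of CUL2, was the most abundant of them at 320.2 ± 46.0 FPKM in Laiwu, against 312 ± 57.0 FPKM in Yorkshire, ahead of KEAP1, the KLHL-like sensor of oxidative stress, at 38.7 ± 3.27 FPKM in Laiwu, against 39.3 ± 2.13 FPKM in Yorkshire. KBTBD6 averaged 0.593 ± 0.0535 FPKM in Laiwu, against 0.417 ± 0.0949 FPKM in Yorkshire, and FBXW8 0.813 ± 0.192 FPKM in Laiwu, against 0.564 ± 0.158 FPKM in Yorkshire (SD, n = 6 each).

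Of the genes of known client proteins, 10 of 14 tested were above 0, 4 below and 0 were called. NEB, which encodes nebulin, averaged 585 ± 77.8 FPKM in Laiwu, against 491 ± 101 FPKM in Yorkshire, and LMOD3, which encodes leiomodin-3, 310.1 ± 71.5 FPKM in Laiwu, against 275 ± 38.2 FPKM in Yorkshire (SD, n = 6 each). NEB averaged 528 FPKM in Yorkshire without Yorkshire 5, and LMOD3 was highest in Laiwu 3. DES, which encodes desmin, averaged 1616 ± 181 FPKM in Laiwu, against 1865 ± 287 FPKM in Yorkshire. FLNC, the filamin of muscle, averaged 516 ± 386 FPKM in Laiwu, against 551 ± 444 FPKM in Yorkshire (SD, n = 6 each). It stood at 1290 FPKM in Laiwu 5, 1379 FPKM in Yorkshire 3 and 731 FPKM in Yorkshire 5, against 230 to 507 FPKM in the other libraries.

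By position, the 98 adaptors were spread over 18 chromosomes, with 13 on chromosome 1, 11 on chromosome 6 and 7 on chromosome X. The 5 closest pairs of members lay less than 1000000 bases apart, among them KLHL41 and KLHL23, 136 kb apart on chromosome 15 with 4 genes between them. KLHL41 averaged 1186 FPKM over all libraries and KLHL23 10.7 FPKM. KLHL11 and KLHL10 lay 1.43 kb apart on chromosome 12, at 0.547 and 0.0151 FPKM, and FBXO2 and FBXO6 19.6 kb apart on chromosome 6, at 0.0724 and 5.35 FPKM. In all, 20 members overlapped a gene on the opposite strand, and their counts share the limit given for KLHL40.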

How the data were processed

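Per the labels' protocols, poly(A) RNA was made into libraries with dUTP strand marking. Per the series' design text, reads were filtered with FastQC 0.11.9 and aligned with HISAT2 2.2.1 to Sscrofa11.1. Cutadapt 1.9, StringTie 1.3.4d, edgeR and DESeq2 stand in the submitters' processing notes with no role. No source used here gives the annotation release or says whether strand entered the counting. The deposited table holds, per the file headers, whole-number counts and FPKM values made by the authors.

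Genes averaging 0.5 FPKM or more were tested (11205; 12066 were not), Laiwu minus Yorkshire, with edgeR 4.0.16, TMM normalization, the robust quasi-likelihood test and Benjamini-Hochberg adjustment over all tested genes, at an adjusted p under 0.05. The test was also run on simulated counts with no odd library and no effect of gene length, and that outcome is not given. The SE is the fold change over the root of its F, and intervals are 95%. DESeq2 1.42.0, limma 3.58.1 on log2(FPKM + 1) and other filters, scalings and libraries left out were alternatives (R 4.3.3; figures with Python 3.11.15 and matplotlib 3.10.9). Limits of counts cover counting error only.

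The members and lists were chosen with earlier results of these data known. Named were the 5 highest of each family, a panel of members with known roles in muscle, metabolism or the clock, the 5 of smallest p, any without overlap between breeds (0) and 3 each side of the minimum, and of each partner list the 2 highest and the 1 of smallest p. Other partner and client genes were chosen after their values were seen. Of 39 members so named, 36 were tested. Of these, 1 is not reported here. Fold changes are given for 28 whose sign changed under at most 1 of 23 other settings or that are among the 5 most abundant, a limit set after the values were seen.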

Additional observations from a re-analysis of the deposited data

Results flagged for a closer look

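Within a breed of 6 libraries, a value was looked at again when the gap to its nearest neighbour was a large share of the range (Dixon's 95% limit). This held for 14 values over 78 adaptors and 2 breeds, 156 groups in all, and chance flags about 1 in 20 groups. Yorkshire 3 stood high for KLHL40 (221 FPKM, next 106), ASB5 (147 FPKM, next 64.2), KLHL15 (1.44 FPKM, next 1.02) and KLHL3 (2.38 FPKM, next 1.19). Laiwu 3 stood low for ASB1 (3.62 FPKM, next 18.2) and high for KLHL38 (34.0 FPKM, next 19.1) and KLHL2 (4.81 FPKM, next 3.40). Laiwu 4 stood high for FBXL22 (3.70 FPKM, next 1.76) and FBXO39 (3.63 FPKM, next 1.45), and Yorkshire 2 for FBXO39 (3.27 FPKM, next 0.993). Yorkshire 5 stood low for FBXO21 (2.49 FPKM, next 3.63) and high for FBXL15 (3.76 FPKM, next 2.38). Laiwu 2 stood high for KLHL7 (18.8 FPKM, next 14.0) and Laiwu 6 for FBXL19 (1.18 FPKM, next 0.836).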

How the results depend on the processing

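The count of adaptors called stayed at 0 under 11 alternatives of test, scale, filter, block and weights, under each of the 12 libraries left out and with Yorkshire 3 and Yorkshire 5 left out, the last chosen after the values were seen. The count of called partner genes was 0 in all of these as well. The median log2 fold change of the adaptors ran from 0.03 to 0.09 under those 11 alternatives and from 0.02 to 0.07 with 1 library left out. The number at an unadjusted p under 0.05, 1 in the fit reported, ran from 0 without Laiwu 3 to 6 without Yorkshire 2. With library size alone it was 5. Over all genes the count at an unadjusted p under 0.05 was 498 of 11205, and 284 to 656 with 1 library left out. With no filter on low values it was 1715, but over a larger number of tested genes, so the counts cannot be compared directly. With the replicate number as a replicate block 0 adaptors were called, 3 had an unadjusted p under 0.05 and the median was 0.07. The deviations of same-numbered libraries of the breeds had correlations from -0.272 to 0.331 over the 6 pairs. Differently numbered libraries were not compared, so whether the numbers pair the libraries cannot be told. Of the 78 adaptors, 29 changed sign under at least 1 of the 23 settings listed first. With voom and quality weights ASB2 was at 0.0254. With 1 library left out, ASB2 ran from -0.11 to 0.0492, ASB5 from -0.28 to 0.0526, KLHL40 from -0.67 to 0.0714, FBXL22 from -0.17 to 0.42 and FBXL5 from -0.0792 to 0.0779. Without Yorkshire 3 and Yorkshire 5, the sign changed for KLHL40 (0.35), ASB5 (0.11), ASB2 (0.0721), FBXO7 (0.000101), FBXO31 (-0.0140), KLHL11 (-0.0190) and KLHL31 (-0.0290). The cause of these changes was not tested. Depth limits the adaptors below the minimum, where a count of 0 allows up to 3 counts.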
